A study of Rattus norvegicus with 6 samples.

Results

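Caspase 6, 8 and 9 and the main survival and death proteins of the BCL2 family were examined through every rat probe set annotated to Casp6, Casp8, Casp9, Bcl2, Bcl2l1, Mcl1, Bax and Bak1. Of these 8 genes, 7 had probe sets of their own, 13 in all, among 14217 genes that the array annotation names alone. Bax had none, and the only probe set that lists it, 1369122_at, also lists LOC681314. Signals were measured in 832/13 INS-1 cells, a clone of a rat insulinoma line used as a model of the pancreatic β-cell, grown in 11 mM glucose at passages 7 to 25. The COUP-TFII depleted group had been electroporated with 68 pmol of siRNA against COUP-TFII, the nuclear receptor encoded by Nr2f2, and the control group with scrambled siRNA. Both groups thus went through electroporation, and RNA was taken 48 h later. The design gave 3 arrays labelled as biological replicates for COUP-TFII siRNA and 3 for scrambled siRNA. All cells came from 1 clone of a tumor line, which limits it as a model of a β-cell in the islet.

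Apoptosis runs along a pair of routes that meet at a cascade of proteases, the caspases. On the death receptor route, caspase 8 is the initiator. On the mitochondrial route BAX and BAK1 open the outer mitochondrial membrane, the released cytochrome c assembles the apoptosome around APAF1, and caspase 9 is activated there, while BCL2, BCL-XL (the product of Bcl2l1) and MCL1 hold BAX and BAK1 in check. Executioner proteases, among them caspase 6, then cut nuclear lamins and other substrates. Most of this control acts on the proteins, by cleavage, binding and movement to the membrane, which an array of RNA does not measure. The study also followed cell viability and apoptosis after COUP-TFII depletion, and the comparison here asks whether RNA of these genes differed in the same setting.

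The DNA just upstream of the start site is shown for Casp6, Casp9 and Mcl1, the members with a probe set whose groups of arrays lay apart. Each stretch is the 250 bases before the annotated RefSeq start on the assembly GRCr8, written 5′ to 3′ on the plus strand, at chr2:221140136-221140385 for Casp6, chr5:159391824-159392073 for Casp9 and chr2:185907918-185908167 for Mcl1. Capitals mark the GC box, GGGCGG or, when read on the opposite strand, CCGCCC, a short element common in promoters.
Casp6 upstream: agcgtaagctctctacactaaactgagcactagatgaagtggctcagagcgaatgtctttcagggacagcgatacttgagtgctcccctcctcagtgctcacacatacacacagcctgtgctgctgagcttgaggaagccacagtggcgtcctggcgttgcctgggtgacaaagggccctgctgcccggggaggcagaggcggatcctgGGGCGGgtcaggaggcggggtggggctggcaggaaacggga
Casp9 upstream: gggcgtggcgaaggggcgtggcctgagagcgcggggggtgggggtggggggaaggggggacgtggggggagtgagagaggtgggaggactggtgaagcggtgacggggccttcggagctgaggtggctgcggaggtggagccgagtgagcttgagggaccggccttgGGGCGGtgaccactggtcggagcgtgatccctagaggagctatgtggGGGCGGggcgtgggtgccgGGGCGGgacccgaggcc
Mcl1 upstream: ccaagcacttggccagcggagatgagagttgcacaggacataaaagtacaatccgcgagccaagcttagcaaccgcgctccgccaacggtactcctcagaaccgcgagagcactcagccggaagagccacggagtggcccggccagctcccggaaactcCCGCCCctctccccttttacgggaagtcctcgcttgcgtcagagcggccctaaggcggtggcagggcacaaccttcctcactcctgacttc
The Casp6 and Mcl1 stretches each hold 1 GC box and that of Casp9 holds 3, and their GC contents are 60.8%, 73.2% and 62% for Casp6, Casp9 and Mcl1. RefSeq windows were matched for 6 of the 8 members, 9 windows in all because Bcl2l1 has several start sites. Some Bcl2l1 windows overlap, so the 9 are not independent. A GC box was found in 4 of these 9 windows, none of them of Bcl2l1, and in 30.5% of all 33469 windows of this length. The COUP-TF half-site AGGTCA, or TGACCT when read on the opposite strand, was found in 0 of the 9 and in 14.1% of all windows. A match says only that the letters are present, and COUP-TFII binding was not measured.

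The target of the siRNA was read first. The brightest Nr2f2 probe set, 1389554_at, had signals of 47.0, 27.7 and 23.8 in COUP-TFII depleted cells, against 182, 235 and 179 in control cells, which is -2.65 as a log2 fold change (standard error 0.30). The adjusted p was 0.404 from limma and 0.0185 when limma took the replicate number as a block. A further Nr2f2 probe set, 1370063_at, read 19.7, 22.2 and 21.3 in depleted cells, against 79.8, 65.7 and 61.8 in control cells, with a difference of -1.71 on the log2 scale and an adjusted p of 1 from limma (0.316 with the block). The remaining one, 1395863_at, lay between 7.99 and 19.9 on all arrays, within the background scale defined next. A signal is an intensity that MAS5 computed from the probes of a set. It can be compared between arrays but not strictly between probe sets, so the background scale and the summed marker signals below are rough guides. Detection calls are not part of the deposited table. The highest signal of 27 control probe sets for Bacillus genes, 20.7, therefore served as a scale for background. Array medians ran from 29.9 to 39.4, and from 56.3% to 63.8% of probe sets lay above 20.7. Arrays numbered 2 had the lowest median in each group.

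No member probe set passed an adjusted p of 0.05 from limma (0 of 13), where 0 of 31042 probe sets did (0%), and none did with the replicate block (0.0161% of all) or by the methods' t-test. At an unadjusted p up to 0.05 there was 1 member probe set with lower signal, that of Casp6 (1.34% of all), and 0 with higher signal (0.973% of all). With the block there were 2 lower, the other being Mcl1 1370141_at (3.51% of all), and 0 higher (2.72% of all). The methods' t-test gave 1 at that unadjusted p, again Casp6 and from the same arrays. Its share over all probe sets was not computed. The members were selected on these same signals, so the calls above and the values below are a description. Nothing is tested with them, and the calls of Casp6 and Mcl1 are no support for a difference. Of the 13 probe sets 9 had lower and 4 higher mean log2 signal in COUP-TFII depleted cells (50.4% of all probe sets were lower). Their median log2 fold change was -0.30, beside -0.0031 over all probe sets. The 3 depleted arrays lay wholly below the 3 control arrays for 3 of the 13 (3.45% of all) and wholly above them for 0 (3.24% of all). In all 3 same-numbered pairs of arrays 7 of 13 were lower (14.0% of all) and 2 were higher (13.4% of all). Of the lower ones, Casp8 1369262_at and Bcl2l1 1369180_at lay within background on all 6 arrays, and Casp9 1388083_a_at and Bak1 partly. Of the higher ones, Casp9 1370737_at lay mostly within it. The pair counts thus include probe sets whose direction is not read below. Several probe sets share a gene, so these counts are not of independent items. By the background scale 6 probe sets lay above 20.7 on all 6 arrays, 3 lay at or below it on all 6, and 4 were on both sides. RNA per cell and the share of cells that carry it cannot be told apart in these bulk samples.

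Among the 6 member probe sets above background on all arrays, that of the executioner caspase showed the widest gap. Casp6 1368305_at, for caspase 6, which cleaves nuclear lamin A, had signals of 34.7, 28.0 and 40.4 in COUP-TFII depleted cells, against 102, 68.2 and 59.6 in control cells. All 3 depleted arrays read below all 3 control arrays, and every one of the 6 lay above the background scale. The means were 34.4 ± 6.24 in depleted and 76.5 ± 22.2 in control cells (SD, n = 3 each), and the log2 fold change was -1.13 (standard error 0.32), or 45.6% of the control level. The same-numbered pairs differed by -1.55, -1.29 and -0.56 on the log2 scale for numbers 1, 2 and 3. The control arrays carried most of the spread, with replicate 1 the highest. With 1 array left out the log2 fold change ran from -1.29 without scrambled siRNA replicate 3 to -0.91 without scrambled siRNA replicate 1, and it was -0.86 with log2(signal + 16), which shrinks changes at low signal.

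Casp9, for the initiator caspase of the apoptosome, was read by 3 probe sets, of which 1 lay above background on all arrays. The brightest, 1368652_at, had signals of 71.9, 55.4 and 61.5 in COUP-TFII depleted cells, against 76.5, 71.9 and 72.9 in control cells. The groups only just parted, since the highest depleted array and the lowest control array both round to 71.9. The means were 62.9 ± 8.31 in depleted and 73.8 ± 2.42 in control cells (SD, n = 3 each), and the log2 fold change of -0.24 (standard error 0.23), about as large as its error, was -0.34 without replicate 1 of the depleted cells and -0.15 without their replicate 2. The other probe sets lay mostly within the background scale. Casp9 1370737_at read 11.3, 2.67 and 22.1 in depleted cells, against 3.83, 2.27 and 12.2 in control cells, with 1 of 6 arrays above 20.7. Casp9 1388083_a_at read 22.7, 4.26 and 13.2 in depleted cells, against 24.5, 9.84 and 14.7 in control cells, with 2 of 6 arrays above it. The first of these dim probe sets was higher and the second lower in 3 of 3 same-numbered pairs, so at this signal they give no common direction. Across the 6 arrays, which these values share, the log2 signal of 1368652_at correlated with that of 1388083_a_at at r = 0.819 and with that of 1370737_at at r = 0.0235.

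Casp8, for the initiator caspase of the death receptor route, was not read above background on any array. Its probe set 1369262_at gave 1.93, 0.855 and 10.8 in COUP-TFII depleted cells, against 5.34, 4.12 and 14.1 in control cells, and 1380297_at gave 0.92, 14.3 and 15.4 in depleted cells, against 10.3, 5.48 and 8.89 in control cells. The first was lower in 3 of 3 same-numbered pairs and the second in 1 of 3. Since all these signals lay at or below 20.7, as they did for 26.4% of all probe sets, no fold change is given, and a difference in Casp8 RNA was not detectable here.

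**Figure D1:**
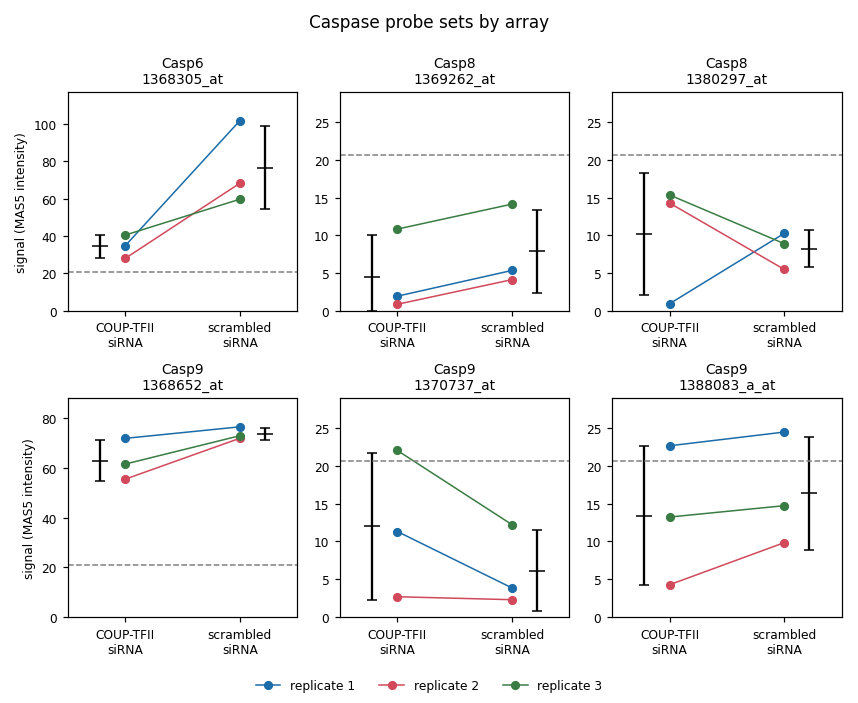
MAS5 intensity of the 6 caspase probe sets on every array, on linear axes that start at 0, in COUP-TFII siRNA and scrambled siRNA cells. Each point is an array, each line connects a same-numbered pair, black bars show mean ± SD (n = 3, cut at 0 where they would pass below it) and 20.7, the background scale, is dashed. Casp6 is the only panel with a wide gap between the groups, and both Casp8 panels lie under the dashed line.

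Among the survival proteins, both Mcl1 probe sets had lower means in COUP-TFII depleted cells, while Bcl2 and the brighter probe sets of Bcl2l1 did not. MCL1 is a short-lived BCL2 relative that binds BAK1 and BH3-only proteins. Mcl1 1370141_at had signals of 173, 171 and 138 in depleted cells, against 191, 216 and 185 in control cells. The groups did not overlap. The means were 161 ± 19.4 in depleted and 197 ± 16.0 in control cells (SD, n = 3 each), a log2 fold change of -0.30 (standard error 0.17) that ran from -0.36 to -0.20 with 1 array left out. The brighter probe set, 1372520_at, gave 682, 906 and 766 in depleted cells, against 1018, 843 and 891 in control cells. Here the groups overlapped, because replicate 2 was higher in depleted cells while the other two pairs were lower. Its means were 784 ± 113 in depleted and 917 ± 90.4 in control cells (SD, n = 3 each), and its log2 fold change of -0.23 (standard error 0.15) was -0.34 without replicate 2 of the depleted cells and -0.13 without their replicate 1. The 2 probe sets thus gave similar differences, although their log2 signals correlated across the 6 arrays with an r of only 0.422.

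Bcl2l1 codes for BCL-XL, a survival protein, and by alternative splicing for the shorter BCL-XS, which promotes death. Its probe sets are not assigned to either form here. The brightest, 1370812_at, had signals of 117, 134 and 208 in COUP-TFII depleted cells, against 137, 87.7 and 182 in control cells. The groups overlapped, with higher signal in 2 of 3 pairs. The log2 fold change was 0.19 (standard error 0.31), and it was negative without COUP-TFII siRNA replicate 3 (-0.05), with scrambled siRNA replicate 2 removed (-0.09) and without both arrays numbered 2 (-0.02). Bcl2l1 1370485_a_at had signals of 52.1, 35.6 and 66.6 in depleted cells, against 47.2, 22.8 and 32.8 in control cells. It was higher in 3 of 3 pairs, by 0.14, 0.65 and 1.02 on the log2 scale for numbers 1, 2 and 3, yet the groups overlapped, since replicate 2 of the depleted cells lay below replicate 1 of the control cells. The means were 51.4 ± 15.5 in depleted and 34.2 ± 12.3 in control cells (SD, n = 3 each), and the log2 fold change was 0.60 with a standard error of 0.40 (0.30 with the replicate block). It was 0.34 if replicate 2 of the control cells was left out and 0.87 if their replicate 1 was. The third probe set, 1369180_at, gave 3.29, 7.63 and 14.6 in depleted cells, against 14.3, 9.11 and 17.4 in control cells, all within the background scale and lower in 3 of 3 pairs. The probe sets of Bcl2l1 therefore gave no single direction.

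Bcl2, the founding survival gene of the family, was read near background. Bcl2 1387611_at had signals of 27.5, 12.9 and 27.8 in COUP-TFII depleted cells, against 15.8, 20.7 and 21.0 in control cells. The groups overlapped, with replicates 1 and 3 higher and replicate 2 lower in depleted cells. The means were 22.7 ± 8.52 in depleted and 19.2 ± 2.91 in control cells (SD, n = 3 each), and the log2 fold change of 0.17 (standard error 0.51) ran from -0.01 to 0.54 with 1 array left out, so its direction rests on single arrays.

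Of the pore formers, Bak1 read lower in COUP-TFII depleted cells in every pair. Bak1 1368066_at had signals of 18.8, 35.6 and 12.3 in depleted cells, against 27.9, 46.6 and 39.7 in control cells. The groups overlapped through replicate 2 of the depleted cells, and only 1 of 3 depleted arrays lay above the background scale, while 3 of 3 control arrays did. The means were 22.2 ± 12.0 in depleted and 38.1 ± 9.49 in control cells (SD, n = 3 each), with a log2 fold change of -0.88 (standard error 0.50). It ran from -1.29 without COUP-TFII siRNA replicate 2 to -0.53 without COUP-TFII siRNA replicate 3, and it was -0.53 with log2(signal + 16). The pair numbered 3 differed by -1.69 on the log2 scale, against -0.57 and -0.39 for numbers 1 and 2.

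The probe set that lists both LOC681314 and Bax, 1369122_at, cannot be assigned to either gene. It had signals of 612, 712 and 700 in COUP-TFII depleted cells, against 645, 578 and 647 in control cells. The groups overlapped, with higher signal in 2 of 3 pairs. The means were 675 ± 54.6 in depleted and 623 ± 39.4 in control cells (SD, n = 3 each), a log2 fold change of 0.11 (standard error 0.13) that was 0.06 if replicate 2 of the control cells was left out and 0.18 if replicate 1 of the depleted cells was. It was left out of the counts over the members.

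**Figure D2:**
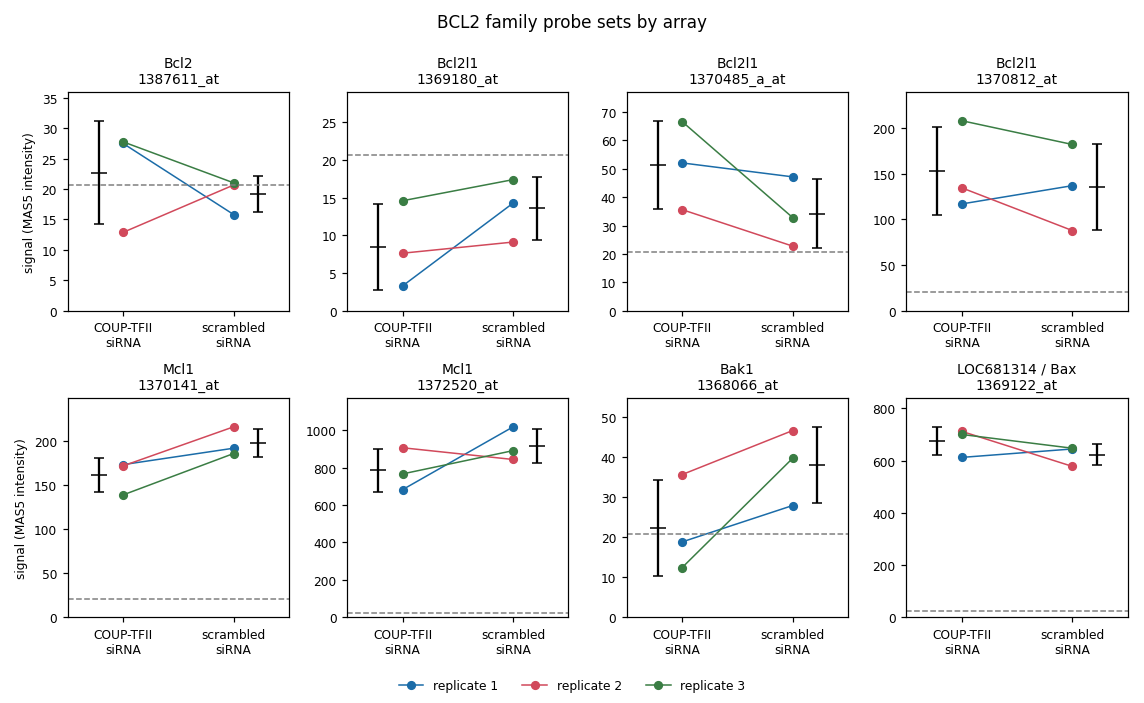
MAS5 intensity on every array, on linear axes that start at 0, of the 7 probe sets of Bcl2, Bcl2l1, Mcl1 and Bak1 and of the probe set shared by LOC681314 and Bax, in COUP-TFII siRNA and scrambled siRNA cells. Each point is an array, each line connects a same-numbered pair, black bars show mean ± SD (n = 3) and 20.7, the background scale, is dashed. The groups lie apart only for Mcl1 1370141_at, while Bcl2l1 1370485_a_at is higher, and Bcl2l1 1369180_at and Bak1 are lower, in each pair with overlapping groups.

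**Figure D3:**
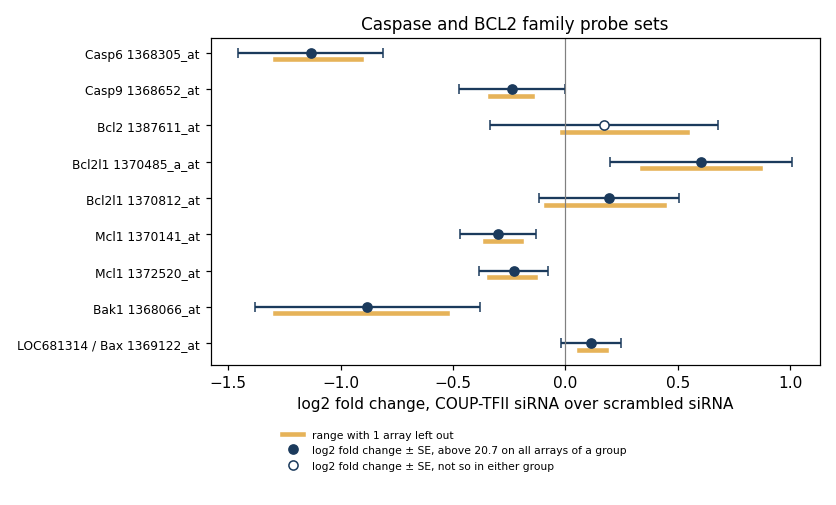
log2 fold change of COUP-TFII siRNA over scrambled siRNA with its standard error (points and bars) for the probe sets with at least 3 of 6 arrays above 20.7, and the range of that fold change with 1 array left out (orange lines). Filled points lie above 20.7 on all arrays of at least 1 group. Casp6, at -1.13, lies farthest from 0 and Bak1, at -0.88, has one of the widest errors, while the orange lines of Bcl2 and Bcl2l1 1370812_at cross 0.

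To see which other RNAs followed the members from array to array, the named probe set with the highest Pearson correlation of log2 signal was found for the brightest probe set of each gene, among about 12190 with at least the median signal. With 6 arrays very high values arise for many probe sets, and the points share arrays and scaling, so these are descriptions only. Casp6 was most like Klhl2 (r = 0.994), and 44 probe sets reached an r above 0.9. Bak1 was most like Borcs7 (r = 0.993, with 82 above 0.9) and Mcl1 like Slit2 (r = 0.971, with 35). Bcl2 was most like Aar2 (r = 0.995), Casp9 like Slc25a10 (r = 0.984), and Casp8, within background, like Zfp90 (r = 0.984). For Bcl2l1 the closest was Zfp706 (r = 0.991), and 167 probe sets exceeded 0.9, the most of the 7 genes.

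The rest of the apoptosis pathway was read from lists of 70 other genes, of which 59 had a probe set of their own and the other 11 were not analysed here. Each gene was represented by its brightest probe set. None of the 59 passed an adjusted p of 0.05 from limma over all probe sets, without or with the replicate block (0% and 0.0211% of all genes). At an unadjusted p up to 0.05, 1 was higher (0.717% of all genes) and 1 lower (1.30%), and with the block 2 were higher (3.02%) and 2 lower (4.10%). Their median log2 fold change was 0.01, against -0.0038 over all genes, with 30 higher and 29 lower by mean (50.6% of all genes were lower). The groups lay apart for 2 lower (3.55% of all genes) and 3 higher genes (3.17%).

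The lower gene was Sesn2, for sestrin 2, a stress-induced p53 target that restrains mTORC1. Its signals were 453, 359 and 427 in COUP-TFII depleted cells, against 545, 629 and 551 in control cells. All depleted arrays read below all control arrays, with a log2 fold change of -0.48 (standard error 0.15, unadjusted p = 0.00963 and adjusted p = 1 from limma, adjusted p = 0.678 with the block), and -0.32 without both arrays numbered 2. The higher one was Tnf, for the ligand tumor necrosis factor, named after its values were seen. It read 5.55, 11.0 and 16.1 in depleted cells, against 2.05, 1.87 and 4.17 in control cells, all within background, so no fold change is given. With the block Ccng1, for cyclin G1, another p53 target, joined the higher ones (unadjusted p = 0.0238 from limma) and Pak2, a kinase that caspases cleave, the lower ones (unadjusted p = 0.0288 from limma). Ccng1 signals were 2427, 1950 and 2525 in depleted cells, against 2205, 1640 and 1983 in control cells, higher in each pair with overlapping groups, and its log2 fold change of 0.25 was 0.13 if replicate 2 of the control cells was left out. Pak2 signals were 674, 825 and 863 in depleted cells, against 883, 909 and 961 in control cells, with groups apart and a log2 fold change of -0.23 (-0.12 without COUP-TFII siRNA replicate 1).

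Upstream of caspase 8, the list of death receptors and their adaptors also held Cflar and the ligands Tnf, Faslg and Tnfsf10. Among these, Tnf and Faslg were higher by mean, and Tnfsf10 and Cflar lower. On all arrays 7 of the 11 genes lay above 20.7, and 2, Tnf among them, lay at or below it. Over the whole list 7 of 11 genes were higher and 4 lower by mean, with a median log2 fold change of 0.20 (0 at an adjusted p of 0.05). With any 1 array left out that median was lower, from 0.05 without COUP-TFII siRNA replicate 3 to 0.16 without COUP-TFII siRNA replicate 2. Fas, the receptor itself, had signals of 98.9, 111 and 93.1 in COUP-TFII depleted cells, against 88.8, 70.6 and 87.3 in control cells. The groups lay apart, and the log2 fold change was 0.30 (standard error 0.21, unadjusted p = 0.19 from limma), and 0.12 without both arrays numbered 2. Tnfrsf21, death receptor 6, stood at 0.22 (standard error 0.24), and at 0.06 without COUP-TFII siRNA replicate 1. Tnfrsf1a, the main TNF receptor, stood at -0.18 (standard error 0.17), at -0.07 without scrambled siRNA replicate 2 and at -0.01 without both arrays numbered 2.

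The BH3-only proteins, which trigger BAX and BAK1 or neutralise the survival proteins, were lower by mean in 8 of 9 genes, with a median log2 fold change of -0.12. Without scrambled siRNA replicate 2 only 4 of 9 were lower and the median was 0.01, and without COUP-TFII siRNA replicate 1, or without both arrays numbered 2, 5 of 9 were lower. After quantile normalization the median was -0.03. Bcl2l11, for BIM, had signals of 226, 209 and 213 in COUP-TFII depleted cells, against 245, 315 and 217 in control cells, lower in each pair with overlapping groups. Its log2 fold change was -0.25 (standard error 0.17), with -0.59 in the pair numbered 2 and -0.12 and -0.03 in the pairs numbered 1 and 3. It was -0.10 without scrambled siRNA replicate 2 and -0.07 without both arrays numbered 2. Bid, which caspase 8 cleaves, had a value of -0.13 and Bnip3, a hypoxia-induced mitochondrial protein, one of -0.12, and both changed sign with 1 array left out. Of the other multidomain BCL2 proteins 4 of 5 were higher by mean, with a median of 0.02. Without scrambled siRNA replicate 1 the count was 1 of 5 and the median -0.04. Bok, a relative of BAX and BAK1, stood at 0.21 on the log2 scale (standard error 0.25) and at 0.07 if replicate 3 of the control cells was left out, while Bcl2l14 and Bcl2l2 were at 0.02 and 0.01.

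Around caspase 9, the 5 genes of the apoptosome and mitochondrial release had a median log2 fold change of 0.10, with 4 higher and 1 lower by mean. Without COUP-TFII siRNA replicate 2 the median was -0.07, with 2 higher and 3 lower. Apaf1, the scaffold on which caspase 9 assembles, had signals of 89.5, 97.4 and 76.6 in COUP-TFII depleted cells, against 65.6, 98.4 and 73.0 in control cells. The groups overlapped, with a log2 fold change of 0.17 (standard error 0.24) that was 0.04 if replicate 1 of the control cells was left out. Aifm1, for apoptosis-inducing factor, had a value of 0.14 (0.03 if replicate 2 of the depleted cells was left out) and Diablo, an antagonist of the IAP proteins, one of 0.10. The inhibitors of apoptosis had a median of -0.16 over 5 genes, 4 of them lower by mean. Without both arrays numbered 2 it was 0.04, with 2 of 5 lower. Birc3 and Birc2, the cellular IAP proteins, were at -0.26 and 0.15, and Birc5, for survivin, at -0.08.

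The other caspases had a median of 0.30 over 4 genes, 3 of them higher by mean. It was -0.09 without scrambled siRNA replicate 2, 0.08 without COUP-TFII siRNA replicate 1 and 0.05 with log2(signal + 16), each with 2 of 4 higher. The 1 gene among them above 20.7 on all arrays was Casp2, with signals of 607, 603 and 576 in COUP-TFII depleted cells, against 488, 613 and 475 in control cells. The groups overlapped, with a log2 fold change of 0.19 (standard error 0.14), from 0.12 to 0.31 over the arrays left out in turn. Of 10 caspase substrates 6 were higher and 4 lower by mean, with a median of 0.03. Without COUP-TFII siRNA replicate 3 the median was -0.14, with 4 higher and 6 lower. After Pak2 came Sptan1, for spectrin, at -0.19 and Dffa, the inhibitor of the apoptotic nuclease, at 0.15. Dffb, for that nuclease, is named after its values were seen because its groups lay apart, with signals of 39.1, 28.6 and 26.8 in depleted cells, against 13.0, 19.1 and 21.2 in control cells. The log2 fold change of Dffb was 0.84 (standard error 0.44, unadjusted p = 0.0938 from limma), and 0.49 with log2(signal + 16). As with Bak1, it rests partly on background, since 2 of the 3 control arrays lay below the background scale. Of 10 measured genes of p53 and its targets 4 were higher and 6 lower by mean, with a median of -0.03. Without COUP-TFII siRNA replicate 2 it was 0.06, with 6 higher and 4 lower, and Sesn1, a relative of Sesn2, was at 0.16.

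**Figure D4:**
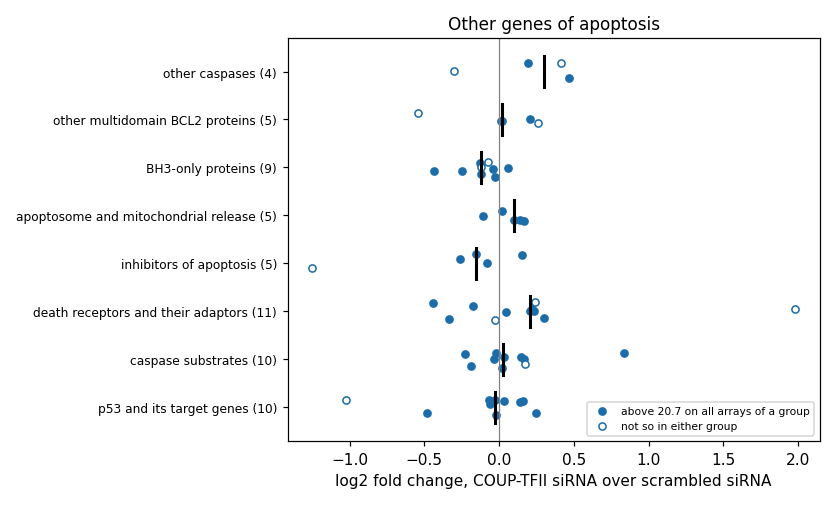
log2 fold change of COUP-TFII siRNA over scrambled siRNA for each measured gene of 8 apoptosis lists (points, number of genes in brackets, spread vertically at random) and each list's median as a black bar. Filled points lie above 20.7 on all arrays of at least 1 group, and the medians lie between -0.16 for inhibitors of apoptosis and 0.30 for other caspases, with most points within 0.5 of 0.

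The labelled cell type was checked against marker genes. All 8 measured β-cell markers lay above 20.7 on all 6 arrays, and their summed signal ran from 39167 to 43656 in COUP-TFII depleted cells and from 29913 to 40805 in control cells. The sum is mostly Ins1 and Iapp and gives no common direction. By mean 5 markers were higher and 3 lower, namely Nkx6-1 (-0.45), Pdx1 (-0.16) and Neurod1 (-0.02). The median log2 fold change of the 8 was 0.15, and -0.02 after quantile normalization. Of 6 acinar and duct markers 4 were within background on all arrays, with sums of 30.9 to 57.1 in depleted cells and 52.8 to 63.1 in control cells. Of 5 stromal and blood cell markers 3 were within background on all arrays, with sums of 52.6 to 57.6 in depleted cells and 48.4 to 85.2 in control cells. The 4 measured markers of other islet cells summed to 850.3 to 8114 in depleted cells and 429 to 6356 in control cells, mostly through Gcg, for glucagon. Gcg signals were 8056, 4788 and 817 in depleted cells, against 6313, 3397 and 394 in control cells for replicates 1, 2 and 3. The groups overlapped because the arrays numbered 3 were far lower than the others in both groups. Within pairs Gcg was higher in depleted cells in 3 of 3, by 0.63 on the log2 scale on average (standard error 1.08 unpaired and 0.13 with the block, where the adjusted p was 0.566 from limma). The part of these differences in the members' values was not tested.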

How the data were processed

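RNA of 3 COUP-TFII siRNA and 3 scrambled siRNA cultures was hybridised to Affymetrix rat 230 2.0 arrays. The authors processed the scans with MAS5 (version not given in the sources used here), subtracted background, normalized with reference probes and deposited a linear intensity for every probe set on every array. Control probe sets (57 of 31099) were left out, signals under 1 (1.85% to 5.49% per array) were raised to 1 before log2, with no further normalization.

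The comparison used limma 3.58.1 under R 4.3.3 (lmFit, eBayes with trend) as an unpaired, two-sided test, and p was adjusted by Benjamini-Hochberg across 31042 probe sets. The number of arrays limits the precision. The replicate numbers came from the sample labels, which do not say that same-numbered arrays belong together. Deviations of same-numbered arrays from their group means correlated (0.111, 0.231 and 0.163, against -0.146 to -0.0104 for other pairs). Deviations cancel within a group, so the negative values for other pairs follow from the positive ones and add no separate evidence. The pairing was taken from these data, and limma was also run with the replicate number as a blocking factor (the replicate block). The fits were also run on simulated arrays as a check of the code, and no result above rests on that run.

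Symbols came from the platform annotation, in which 20826 probe sets carry 1 symbol, 436 carry several and 9780 carry none. The members and gene lists were chosen with earlier results of these data known. Named genes were all member probe sets, Nr2f2, the closest probe set to each member, and up to 3 genes per list with the lowest p at or above the median log2 signal of 5.07. The alternatives tried were log2(signal + 16), median centring, quantile normalization, leaving out arrays, the methods' t-test, limma with no trend, 2 filters against dim probe sets and, for genes, the median of their probe sets. Promoter windows came from RefSeq (GRCr8). Plots used Python 3.11.15 and matplotlib 3.10.9.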

Additional observations from a re-analysis of the deposited data

How the results depend on the processing

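No member probe set and none of the 59 other apoptosis genes passed an adjusted p of 0.05 under any alternative run, and the filters on dim probe sets kept 6 (median signal) and 7 (background scale) of the 13 member probe sets. Over all probe sets the count was 0 in the unpaired limma fit and 0 with each array left out, 1 by the methods' t-test and 5 with the replicate block. With the block it was 4 after quantile normalization and 2 with log2(signal + 16), settings chosen after seeing the data. The median log2 fold change of the 13 member probe sets stayed between -0.34 and -0.19, and between -0.34 and -0.21 with 1 array left out. Of 182 member values under the alternatives 9 changed sign, in 4 probe sets (Casp8 1380297_at, Casp9 1388083_a_at, Bcl2 and Bcl2l1 1370812_at), and 9 probe sets kept their sign. The replicate block and the filters cannot alter a log2 fold change in this balanced design, so their values repeat those of other settings. The Casp8 1380297_at change with log2(signal + 16) is thus counted both without and with the block. Among the pathway genes named, 6 changed sign with 1 array left out, over which the log2 fold change ran from -0.021 to 0.077 for Bcl2l14, -0.080 to 0.085 for Bcl2l2, -0.28 to 0.025 for Bid, -0.46 to 0.076 for Bnip3, -0.074 to 0.24 for Diablo and -0.22 to 0.15 for Birc5 (0.059 without both arrays numbered 2). The cause of these changes was not tested. The genes at an unadjusted p up to 0.05 numbered 0 to 3 higher and 0 to 2 lower, and Sesn2 was not among them for limma without the trend, without both arrays numbered 2 or with the median over its probe sets. Signals near 20.7 limit Casp8, Bcl2 and Bak1.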
